A study of Mus musculus with 50 samples.

Results

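The comparison of wild type (WT) soleus muscle taken 10 min after a single bout of treadmill running with soleus muscle of resting WT mice rests on 10 of the 50 samples of the series, 5 in each group. The members were taken by genotype and time label. The series crosses genotype, WT or muscle DNMT3A knockout (mD3AKO), with rest and 10, 30 and 60 min after running, and 44 of its samples have methylation counts. WT mice were Dnmt3a flox/flox without the Cre transgene, on a C57BL/6 background, so both groups carried loxP sites in both copies of Dnmt3a. The mD3AKO mice used beside them carried Cre driven by the muscle creatine kinase promoter, so recombination was directed to muscle fibres and not to the other cells of the muscle. Each sample was a soleus muscle, and each time point came from different animals. They were 12-week-old males and females, 3 males and 2 females in each group. All mice had 3 days of treadmill familiarization. Exercised mice ran for 30 min at 16 m/min on a 5% incline and were killed 10 min later. Resting mice spent 30 min in a sham treadmill arena. The labels number each sample: rest holds 1, 11, 13, 14 and 20, and 10 min holds 30, 35, 42, 47 and 49. A further label placed sample 40 at 10 min in WT mice, but it had no counts here. In the series as a whole, numbers 1 to 25 went to rest and 60 min and numbers 26 to 50 to 10 and 30 min, so the time after exercise and whatever the numbering followed cannot be told apart in this comparison. The study asked whether a single bout of exercise changes DNA methylation in muscle and whether DNMT3A takes part.

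DNA methylation in mammals is the addition of a methyl group to the cytosine of a CpG dinucleotide. DNMT3A and DNMT3B write it on unmethylated DNA, DNMT1 copies it to the new strand at replication, and TET enzymes start its removal by oxidising it. CpG islands at active promoters are usually free of methylation, while CpGs in gene bodies, between genes and in repeats are mostly methylated. Soleus is a postural muscle rich in slow fibres. Contraction switches on immediate early genes such as Fos and Nr4a3 within minutes and, later, metabolic regulators such as Ppargc1a, which is why the first minutes after exercise are a natural place to look at promoters.

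Methylation was read by reduced representation bisulfite sequencing (RRBS), in which DNA is cut at CCGG sites and sequenced after bisulfite treatment turns unmethylated cytosines into thymines. A level is the percentage of methylated calls. The table held 205304 CpGs of the 19 autosomes. They were summed over 51038 CpG clusters, 9761 promoters and 12391 gene bodies. The 10 samples had 13731392 to 27991287 calls each and a median coverage of 50 to 108 calls per CpG. Bisulfite reads of whole muscle average over all of its nuclei. A change in the cells present and a change within cells cannot be told apart. The promoters of 5 myofibre marker genes were measured, with levels at rest from 0.938% (Tnnc1, slow troponin C) to 39.6% (Neb, nebulin), and that of the leukocyte marker Csf1r was at 64.0%. Of these myofibre promoters, from 14 listed genes, 5 of 5 had a lower mean at 10 min, beside 51.1% of all promoters. Their mean level ran from 7.98 to 13.6% in the rest samples and from 4.91 to 15.4% at 10 min. Of the gene bodies of the same list, 7 were lower and 3 higher, beside 55.8% lower over all gene bodies. The part of the cells present in the results below was not tested.

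Sequences of a few of the features described here are shown first, namely the cluster with the largest difference, a cluster between genes of low p, a promoter with a single divergent CpG, chosen after its values were seen, and for contrast the promoter of an immediate early gene at under 2% in each sample. They are forward-strand GRCm38 sequence, 5′ to 3′, with the measured CpGs in capitals. The Arid1b cluster lies in an intron at chr17:5286835-5286970. The cluster nearest to Sipa1l2 lies between genes at chr8:125327893-125328082. The Aif1l promoter CpGs lie at chr2:31949860-31950025, and the Nr4a3 promoter stretch at chr4:48042866-48043059. That stretch holds 9 of the 22 Nr4a3 promoter CpGs, and the level under 2% is that of all 22 together. The first of the 9 was at 4.62 ± 10.3% at rest and 0.0% at 10 min.
Arid1b: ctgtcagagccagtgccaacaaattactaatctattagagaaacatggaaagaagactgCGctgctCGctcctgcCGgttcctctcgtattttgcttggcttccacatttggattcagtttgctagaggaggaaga
near Sipa1l2: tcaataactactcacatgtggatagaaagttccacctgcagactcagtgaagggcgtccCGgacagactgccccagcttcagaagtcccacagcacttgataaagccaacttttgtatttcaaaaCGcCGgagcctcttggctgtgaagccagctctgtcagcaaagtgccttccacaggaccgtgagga
Aif1l: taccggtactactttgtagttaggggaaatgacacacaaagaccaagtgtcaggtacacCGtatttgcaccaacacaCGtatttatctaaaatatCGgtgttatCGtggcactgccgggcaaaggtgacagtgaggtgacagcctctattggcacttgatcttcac
Nr4a3: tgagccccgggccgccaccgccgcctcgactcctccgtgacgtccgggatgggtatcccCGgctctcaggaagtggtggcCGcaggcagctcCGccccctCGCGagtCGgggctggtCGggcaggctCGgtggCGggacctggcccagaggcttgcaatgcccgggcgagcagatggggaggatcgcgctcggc

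The overall methylation level did not separate the groups. Averaged over the CpGs with equal weight, the 5 rest samples were at 26.3, 25.0, 24.4, 25.7 and 25.9% and the 5 samples at 10 min at 25.2, 24.0, 24.7, 25.8 and 25.9%. The ranges overlap almost completely. The means were 25.5 ± 0.765% at rest and 25.1 ± 0.789% at 10 min (SD, n = 5 each), a difference of -0.378 percentage points with a 95% interval of -1.59 to 0.773 (exact two-sided permutation test, p = 0.46, the smallest p that 5 against 5 allows being 0.00794). The interval was found by inverting the same test. Weighting each CpG by its calls gave a larger and less certain difference of -2.08 points (exact permutation p = 0.5), with rest samples from 22.5 to 37.1% and samples at 10 min from 24.4 to 31.5%. In that pooled value the 100 deepest CpGs held 7.22 to 12.6% of a sample's calls.

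Every genomic context gave a slightly lower mean at 10 min, none of them beyond the spread between mice. CpG islands, which held 142359 of the CpGs, were at 12.0 ± 0.356% at rest and 11.9 ± 0.251% at 10 min. Promoters, taken as deposited, were at 3.46 ± 0.145% and 3.4 ± 0.13%, so that the 95% interval of their difference ran only from -0.276 to 0.141 points. Gene bodies were at 19.8 ± 0.667% and 19.5 ± 0.669%. The open sea, more than 2000 bp from an island, was at 62.6 ± 1.7% and 61.7 ± 2.08%, with an interval of -3.82 to 1.84 points. Soft-masked repeats were at 63.6 ± 1.02% and 63.3 ± 0.831%. Over the 9 contexts the exact permutation p ranged from 0.429 to 0.603 and the adjusted p was 0.553 to 0.603. Pooling calls widened the promoter difference to -2.05 points (exact permutation p = 0.468).

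**Figure D1:**
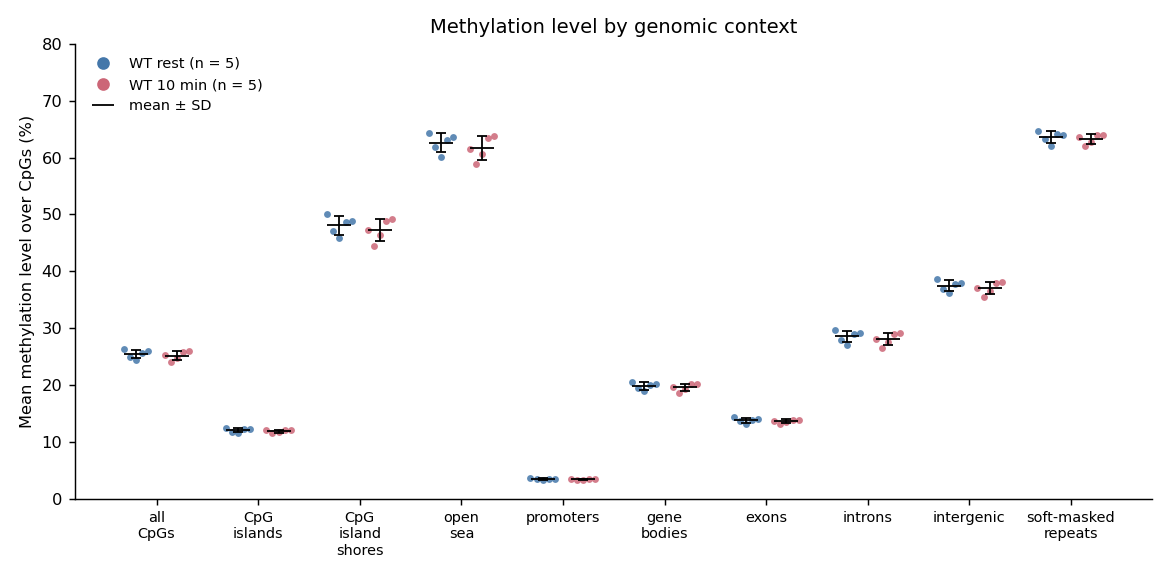
Mean methylation level over CpGs (%, vertical axis) in each genomic context, for 5 WT rest samples and 5 WT samples at 10 min. Points are samples and bars mean ± SD. The 2 groups overlap in every context, from promoters at 3.46 and 3.4% to soft-masked repeats at 63.6 and 63.3%.

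The largest axes of variation were single mice. Of the variance in CpG levels among the 10 samples, component 1 held 15.0%, component 2 held 14.4% and component 3 held 13.2%. On component 1, sample 42 at 10 min scored 55.0 while the other 9 lay between -12.5 and 2.26. On component 2, sample 13 at rest scored 53.7 against -11.4 to 7.53 for the others. Component 3 set sample 11 at rest, at 50.9, apart from the rest of the samples. The groups' difference on components 1 and 2 was within the spread between mice (exact permutation p = 0.468 and 0.619). On component 1 it was 12.6. A decomposition without sample 42 has its own first component, on which the difference was -8.61. The 2 values lie on different axes and are not a reversal. Between 2 samples the squared difference in level at a CpG was a median of 10.2 times that expected from counting within a group, in 20 pairs, and 9.71 times between groups, in 25 pairs. The lowest of the 45 pairs was at 6.51 times, so no pair looked like the same library deposited again.

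**Figure D2:**
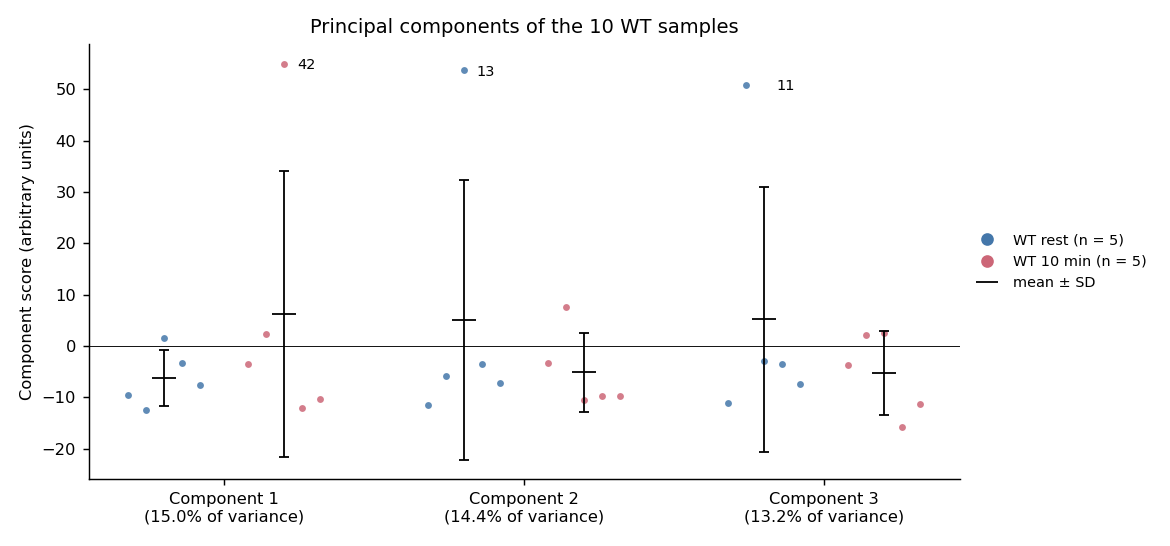
Scores on the first 3 principal components (arbitrary units, vertical axis) of the CpG levels of the 10 WT samples. Points are samples, bars mean ± SD, and the number marks the most extreme sample. One sample stands apart on each component, 42 at 55.0, 13 at 53.7 and 11 at 50.9.

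No feature of any kind passed an adjusted p of 0.05 in the edgeR quasi-likelihood test. This was 0.0% of the 51038 clusters, 0.0% of the 9761 promoters, 0.0% of the 12391 gene bodies and 0.0% of the 205304 single CpGs. At an unadjusted p under 0.05 there were 2190 clusters (4.29%), 964 higher and 1226 lower at 10 min. The same threshold gave 366 promoters (3.75%), 147 of them higher, 550 gene bodies (4.44%), 199 of them higher, and 7204 single CpGs (3.51%). The lowest adjusted p was 0.485 for clusters. Of the other tools, a quasi-binomial model and limma on log2 ratios called 0 clusters, with 2792 and 3039 at an unadjusted p under 0.05. The edgeR likelihood ratio test called 8 clusters (0.0157%) and limma on percent levels 4 (0.00784%). For promoters and gene bodies these tools called 0, with 404 to 695 promoters and 535 to 761 gene bodies at an unadjusted p under 0.05. For single CpGs the likelihood ratio test took a common dispersion, and for clusters that of each cluster, so these counts are not comparable. At single CpGs the likelihood ratio test and the quasi-binomial model called 0, with 11962 and 8226 at an unadjusted p under 0.05.

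Cluster levels moved little in the median and widely at single clusters. The median difference was -0.15 points, 25% of clusters lay below -3.98 and 25% above 2.65. A difference of 10 points or more in the group means was found at 9032 clusters, 3793 higher and 5239 lower. In 351 clusters (0.688%) the samples of the 2 groups did not overlap, 146 with 10 min above rest and 205 with 10 min below. Among promoters this held for 46 (0.471%), 17 higher and 29 lower. What the data could show depended on the level. The 95% interval of the difference in points, unadjusted and taken from limma on percent levels, had a median width of 24.9 points over clusters, 13.1 over gene bodies and 3.03 over promoters. It lay within 5 points of zero for 73.8% of promoters, 38.1% of gene bodies and 20.6% of clusters. Clusters that were between 40 and 60% methylated in the WT samples at 30 and 60 min, which took no part in this comparison, had a median interval width of 41.9 points. Those under 5% had one of 2.91 points. In each of 7 such bins of level the groups' difference was within the spread between mice (exact permutation p from 0.476 to 0.96).

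**Figure D3:**
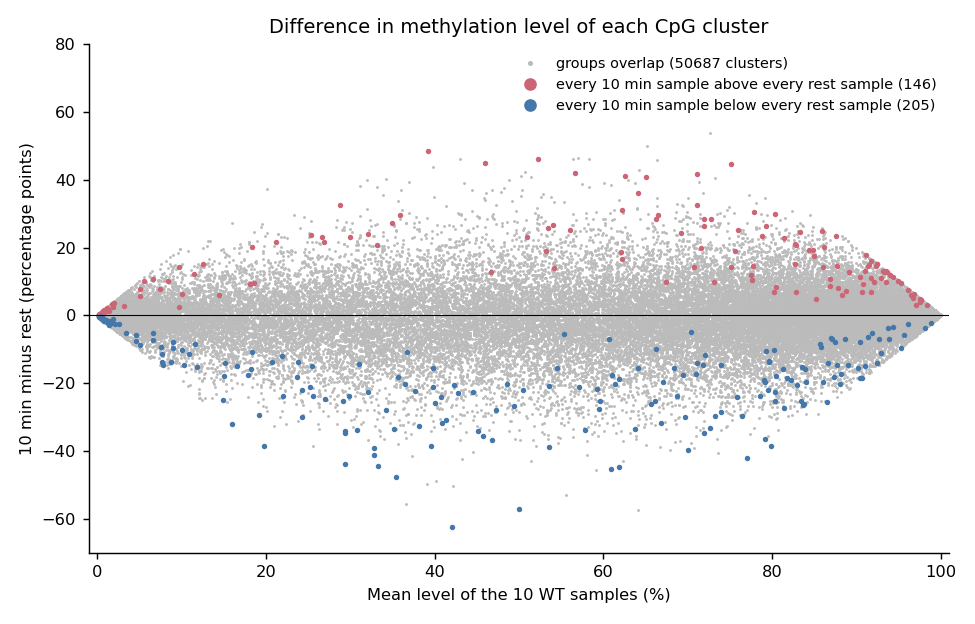
Difference between the mean level at 10 min and at rest (percentage points, vertical axis) against the mean level of the 10 samples (%, horizontal axis), 1 point for each of 51038 clusters. Coloured points are the 146 clusters in which every 10 min sample lay above every rest sample and the 205 in which it lay below. Differences are small near 0 and 100% and reach -62.3 points in between.

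The clusters described next are among the 12 of lowest p with at least 3 CpGs, 20 calls in each sample and a difference of 5 points. The unadjusted p of the 12 ran from 6.81e-05 to 0.00167 and the adjusted p of edgeR's quasi-likelihood test from 0.868 to 1.0, so none of them was called by that test. At 10 min 5 were higher and 7 lower, 6 lay in genes and 6 between genes, and in 6 the groups did not overlap.

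Arid1b, which encodes a DNA-binding subunit of the BAF chromatin remodelling complex, held the largest difference of any cluster. The 3 CpGs lie in an intron at chr17:5286895-5286911, in the shore of a CpG island. Their level at rest was 79.2, 58.3, 93.2, 69.9 and 65.5%, and at 10 min it was 35.7, 0.0, 1.9, 3.1 and 13.7%, with 44 to 323 calls per sample. All rest samples were above all samples at 10 min. The means were 73.2 ± 13.5% and 10.9 ± 14.9% (SD, n = 5 each), a difference of -62.3 points with an unadjusted interval of -80.6 to -44.1. Each of the 3 CpGs was lower, from 89.0 to 16.6%, from 69.6 to 11.3% and from 61.1 to 4.83%. The quasi-likelihood test gave an adjusted p of 0.868, the likelihood ratio test 0.00772, the quasi-binomial model 0.878 and limma on log2 ratios 0.195. Over these alternatives and the left-out samples the adjusted p ran up to 1.0, and its lowest value was that of the likelihood ratio test. Limma on percent levels, added after the data were seen, gave 0.000751. The other groups examined, WT at 30 and 60 min and knockout at rest and 10 min, lay in between or low. WT mice were at 43.4 ± 15.4% at 30 min and 37.6 ± 22.3% at 60 min, and knockout mice at 20.8 ± 14.3% at rest and 17.5 ± 9.91% at 10 min.

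Some of the clusters lay near the ends of the scale at rest. Snx27, a sorting nexin that returns membrane proteins from endosomes to the cell surface, had 3 exonic CpGs at chr3:94531229-94531341 that were fully methylated in rest samples 1 and 14, at 91.2, 99.5 and 99.1% in the other rest samples, and at 90.7, 86.6, 68.5, 86.8 and 79.6% at 10 min. The groups did not overlap (adjusted p 1.0 by the quasi-likelihood test). Bcl9l, a co-factor of beta-catenin in Wnt signalling, had 3 intronic CpGs at chr9:44485638-44485698 that were at 1.24 ± 0.633% at rest and 12.0 ± 5.33% at 10 min. Every rest sample was at 2.17% or below and every sample at 10 min at 4.2% or above. WT mice at 30 and 60 min were at 12.9 and 9.45% there, and knockout mice at 7.03 ± 4.57% at rest and 10.4 ± 7.8% at 10 min. Grifin, a galectin-related lens protein gene, was 15065 bp from a cluster at chr5:140549896-140550006 with 13.4 ± 5.61% at rest and 1.92 ± 2.21% at 10 min, also without overlap.

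Intermediate and high levels made up the others. The cluster 241787 bp from Sipa1l2, at chr8:125327952-125328021, was at 22.8 ± 9.12% at rest and 4.28 ± 6.21% at 10 min. One sample at 10 min, at 15.0%, lay within the rest range. In Ccdc60 6 CpGs at chr5:116180796-116180861, in a CpG island, were at 11.7 ± 6.34% and 2.62 ± 3.34%. Epb41l1, which encodes a protein that links membrane proteins to the actin and spectrin cytoskeleton, had 5 CpGs at chr2:156506317-156506493 with 92.5 ± 7.0% at rest and 79.1 ± 6.62% at 10 min. The cluster nearest to Il9r, the interleukin 9 receptor gene, at chr11:32149695-32149785, was at 93.2 ± 3.42% and 72.6 ± 15.4%. Naaladl2 had 3 intronic CpGs at chr3:25046534-25046629 with 75.2 ± 5.79% at rest and 90.2 ± 3.79% at 10 min. A cluster 8905 bp from Bambi, a decoy receptor of the TGF-beta family, was at 7.7 ± 7.8% and 26.0 ± 10.7%. The last, 118704 bp from Gm11232, was at 91.4 ± 5.82% and 99.0 ± 2.07%.

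**Figure D4:**
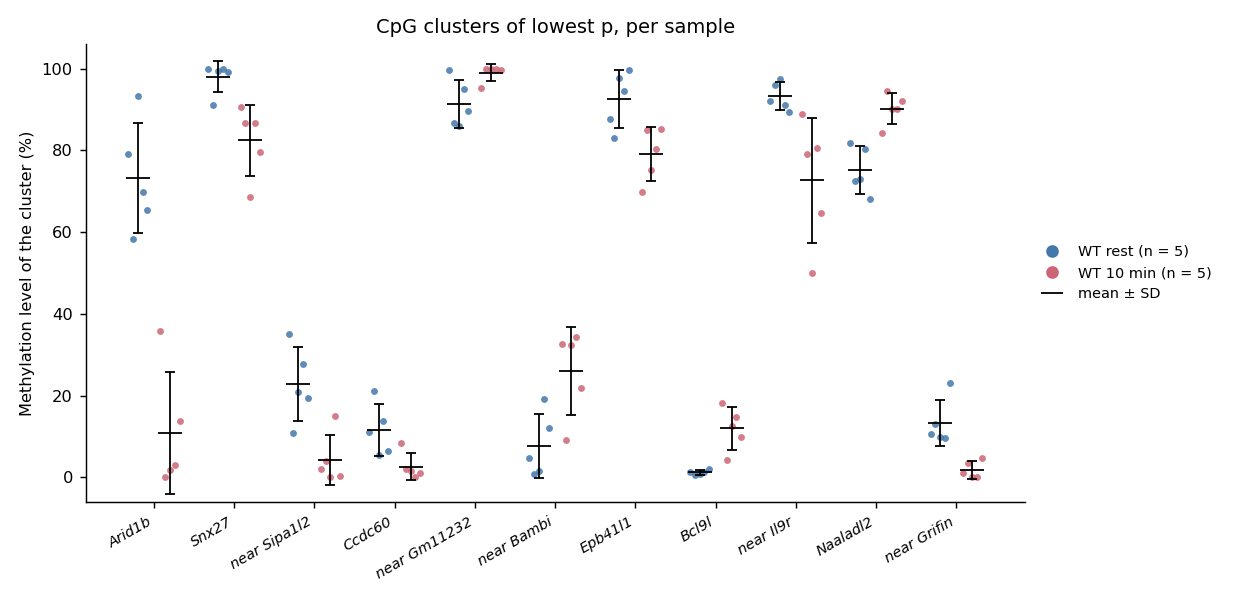
Methylation level (%, vertical axis) of clusters among the 12 of lowest p, 1 point per sample, for 5 WT rest samples and 5 WT samples at 10 min, with mean ± SD. Arid1b has means of 73.2 and 10.9%, and the groups stand apart in 6 of the clusters shown. These clusters were picked for their p-values, so a gap is what the choice looked for.

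In the knockout mice the difference at each of these 12 clusters was smaller in points. Its sign was that of the WT difference except near Gm11232 and in Naaladl2, at -1.59 and -4.32 points. Knockout mice at 10 min differed from knockout mice at rest by -6.94 to 4.18 points, with unadjusted p of 0.0613 to 0.934. The knockout mean at rest lay between the 2 WT means in 12 of 12 clusters, and the knockout mean at 10 min in 10 of 12. The difference between the genotypes' responses had an unadjusted p under 0.05 in 10 of them and an adjusted p of 1.0 in all 12 in edgeR's quasi-likelihood test. Since the clusters were chosen for a large WT difference, their interaction is not independent of that choice. Over all clusters the quasi-likelihood test called 0 for the interaction, which is 0.0%, with 1886 at an unadjusted p under 0.05 (3.7%). The quasi-binomial model and limma on log2 ratios also called 0, with 2659 and 2488, and the likelihood ratio test called 6. Of the 2190 clusters with an unadjusted p under 0.05 in WT mice, 48.6% had a difference of the same sign in knockout mice, beside 50.4% over all clusters. The 2 genotypes had 113 clusters in common at that threshold, 62 of them in the same direction, which is 5.16% of the WT and 7.67% of the 1474 knockout clusters (2.89% of all clusters).

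Some clusters without overlap had differences of 20 points or more. Besides Arid1b, the largest with 3 CpGs and 20 calls were in Prkcb, Gtf2e1, Glis3, Tab1 and Fgfr2. Prkcb, which encodes protein kinase C beta, a calcium-dependent kinase, had 3 intronic CpGs at chr7:122584789-122584815 with 75.4, 63.8, 67.7, 54.5 and 64.1% at rest and 50.0, 34.7, 10.0, 17.6 and 29.6% at 10 min. Fgfr2, a fibroblast growth factor receptor gene, was at 41.8 ± 10.6% at rest and 17.9 ± 11.9% at 10 min in an intronic CpG island at chr7:131778290-131778348. The repeat cluster 62350 bp from Gtf2e1 was at 56.8 ± 3.49% and 24.9 ± 19.7%. Glis3, a zinc finger transcription factor gene, was at 57.7 ± 12.9% at rest and 86.2 ± 8.69% at 10 min. Tab1, which encodes a partner of the kinases TAK1 and p38, was at 52.1 ± 16.3% and 80.4 ± 12.6%. Their unadjusted p ran from 0.00188 to 0.0505 and each adjusted p was 1.0. WT mice at 30 and 60 min were at 73.7 and 48.8% in Prkcb, 44.1 and 47.9% near Gtf2e1, 65.4 and 70.2% in Glis3, 56.3 and 61.4% in Tab1 and 41.0 and 34.4% in Fgfr2.

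The likelihood ratio test, which takes the dispersion of each cluster as known, called 8 clusters, and 5 of these were single CpGs. St8sia1, a ganglioside synthesis gene, had 2 intronic CpGs at chr6:142958719-142958746 with 92.1, 96, 79.0, 93.1 and 82.8% at rest, and at 10 min it was at 99.8% in sample 49 and fully methylated in the other 4. Fbxo25, an F-box gene, had 2 at chr8:13934272-13934309 with 90.7 ± 6.62% at rest and was fully methylated in each sample at 10 min. Rest sample 20 was fully methylated as well. Tmem51 had 1 promoter CpG, 1090 bp from its start, with 48.8, 46.7, 10.9, 49.2 and 3.92% at rest and 0.0% in each sample at 10 min, with as few as 16 calls. Ppargc1b, a PGC-1 family co-activator of mitochondrial and fat oxidation genes, had 1 intronic CpG with 21.4, 49.3, 18.2, 25.8 and 80.4% at rest and 0.0, 1.22, 1.69, 0.0 and 0.0% at 10 min. It lies 64444 bp from the start of the gene, and WT mice at 30 and 60 min were at 19.3 and 7.54%. The others were Arid1b and single CpGs nearest to Olfr1276, Tpbg and Alcam. Adjusted p for the 8 was 0.00266 to 0.0445 in the likelihood ratio test, 0.485 to 1.0 in the quasi-likelihood test, 0.878 in the quasi-binomial model and 0.0642 to 0.391 in limma on log2 ratios. These clusters, and the 4 of the next paragraph, were singled out after their values were seen.

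Limma on percent levels, an alternative added after seeing the data, called Arid1b and 3 single CpGs. The 2 single CpGs described here lie in Wipf1 and near Hace1. Wipf1, which encodes a partner of WASP in actin assembly, had 1 intronic CpG with 42.0 ± 20.7% at rest and 83.1 ± 13.5% at 10 min. There WT mice at 30 and 60 min were at 91.1 and 89.8%, and knockout mice at 96.2 ± 5.87% at rest and 74.9 ± 9.96% at 10 min. A CpG 225795 bp from Hace1 was at 92.8 ± 11.7% and 35.3 ± 27.5%. Its groups overlapped, with a rest sample at 72.1% and a sample at 10 min at 75.0%. For the 4 clusters the adjusted p was 0.868 or more in the quasi-likelihood test and 0.00772 to 0.484 in the likelihood ratio test. The quasi-binomial model gave 0.878 and limma on log2 ratios 0.195 to 0.665.

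At single CpG resolution the 4 of lowest p with 20 or more calls in each sample were near Zfand5, in the Aif1l promoter, near Olfr1276 and in Ppargc1b. The CpG 74666 bp from Zfand5 was fully methylated in all rest samples and at 94.2, 94.3, 83.1, 96.1 and 87.2% at 10 min (unadjusted p = 2.92e-06 and adjusted p = 0.6 in edgeR's quasi-likelihood test). The other groups examined, WT at 30 and 60 min and knockout at rest and 10 min, were at 83.8 to 93.2% on average. Aif1l encodes an actin-bundling calcium-binding protein. Its promoter CpG at chr2:31949956, 183 bp from the start of the gene and in a CpG island, had 0.0% in each rest sample and 53.8, 51.3, 38.9, 15.8 and 21.2% at 10 min, with 30 to 177 calls (adjusted p 0.9). WT mice were at 0.328 ± 0.449% at 30 min and 8.06 ± 9.85% at 60 min, and knockout mice at 1.7 ± 2.4% at rest and 1.78 ± 2.85% at 10 min. At the 3 neighbouring CpGs shown in the Aif1l sequence the groups overlapped. The nearest, at 31949965, was at 2.4 ± 3.88% at rest and 21.0 ± 27.1% at 10 min, and that at 31949937 was lower at 10 min, with 9.4 ± 13.4% against 19.1 ± 13.5%.

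Most promoters had little methylation at both times. The median promoter was at 0.862% at rest and 0.861% at 10 min, and 7562 of 9761 were under 5% in both groups. Of 12 genes named by the study, among them exercise-responsive genes, muscle development genes and the methyltransferases Dnmt3a and Dnmt3b, 8 had promoter CpGs in the table. Those of Ppargc1a, Pdk4, Atf3 and Myog were not analysed. Nr4a3, an immediate early nuclear receptor, had 22 promoter CpGs with 1.15, 0.51, 0.0, 1.05 and 0.0% at rest and 0.0, 0.103, 0.607, 0.146 and 0.206% at 10 min. The groups overlap, and the difference of -0.33 points had an interval of -1.1 to 0.436. Hk2, the muscle hexokinase that traps glucose in the cell, was at 0.943 ± 0.912% at rest and 0.89 ± 0.988% at 10 min over 15 CpGs, and the sign of that difference changed when any of samples 11, 14, 30, 35 or 42 was left out. Mef2a, a myogenic transcription factor, was at 0.36 ± 0.39% and 0.574 ± 0.96%. Tfam, which packages and transcribes mitochondrial DNA, was at 0.408 ± 0.913% and 0.0957 ± 0.214% over 3 CpGs, with an interval of -2.65 to 2.03 points.

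Dnmt3a and Dnmt3b were equally low. The Dnmt3a promoter was at 0.351 ± 0.595% at rest and 0.15 ± 0.266% at 10 min. The Dnmt3b promoter was at 0.0, 0.192, 0.0, 2.9 and 2.41% at rest and 0.0% in all samples at 10 min (unadjusted p = 0.0227 and adjusted p = 1.0 in edgeR's quasi-likelihood test). Rest and 10 min overlap at 0.0%. Only 2 promoters of the 8 lay above 5%. Pax7, the transcription factor of satellite cells, was at 18.3, 12.6, 7.04, 26.8 and 12.1% at rest and 22.0, 10.5, 15.0, 27.8 and 15.3% at 10 min, a difference of 2.74 points with an interval of -2.98 to 8.46. Myh8, the perinatal myosin heavy chain, had 1 CpG 2980 bp from its start, at 57.9 ± 12.2% and 54.9 ± 24.2%, a difference that was 4.15 points higher at 10 min without sample 42. Its interval of -32.3 to 26.2 points leaves room for a large difference in either direction.

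**Figure D5:**
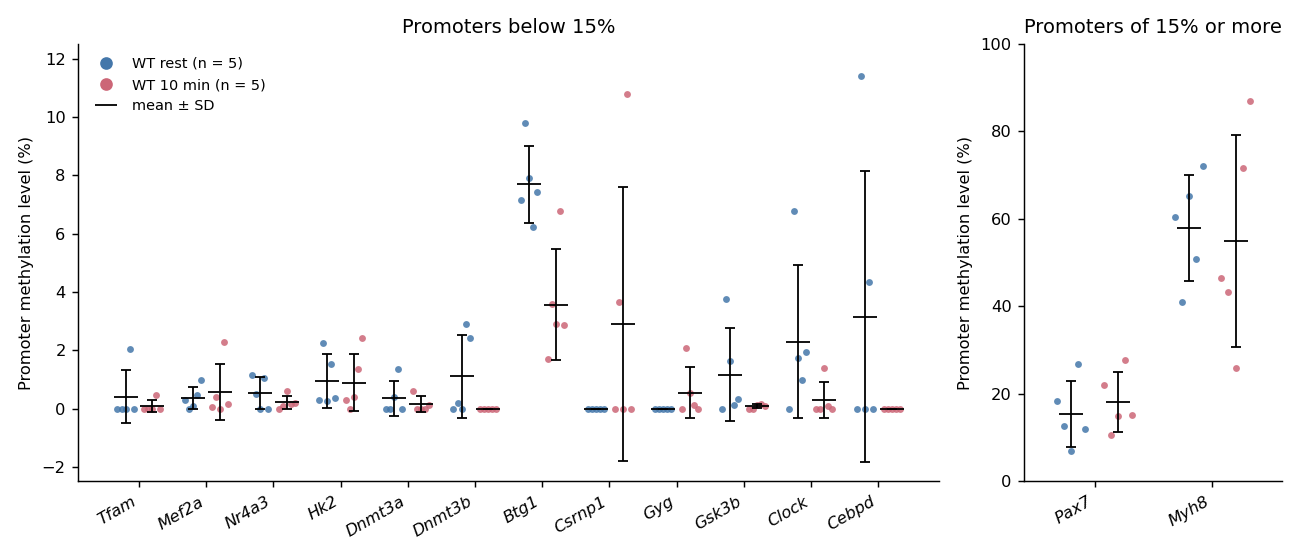
Promoter methylation level (%, vertical axes, of different range) of the 8 measured promoters of genes the study named and of the other listed genes with an unadjusted p under 0.05. Points are samples and bars mean ± SD for WT rest and WT 10 min (n = 5 each). All but Pax7 and Myh8 lie below 12%, and the groups overlap in every promoter shown.

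Gene bodies of the same genes differed by less than their spread. Atf3, a stress-induced transcription factor whose promoter was not analysed, was at 8.65 ± 1.77% at rest and 9.34 ± 2.09% at 10 min over 37 CpGs of its body. The Pax7 body was at 5.97 ± 1.6% and 5.06 ± 1.28% over 81 CpGs, and the Dnmt3a body at 3.55 ± 2.83% and 6.1 ± 4.33% over 21. The Tfam body was at 65.1 ± 9.07% and 64.2 ± 6.06%, and the Hk2 body at 2.72 ± 1.02% and 1.97 ± 2.08%.

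Among immediate early genes 27 of 36 had a measured promoter and none was called. At an unadjusted p under 0.05 there were 1 higher and 1 lower, with a median difference of -0.0507 points beside -0.0202 over all promoters. Fos was at 0.419 ± 0.509% at rest and 0.368 ± 0.304% at 10 min, and Junb at 1.48 ± 0.947% and 1.25 ± 1.82%. Btg1, an antiproliferative gene, had 7.14, 9.78, 7.9, 6.22 and 7.42% at rest and 1.69, 3.6, 2.91, 6.76 and 2.85% at 10 min over 13 CpGs (unadjusted p = 0.0144, adjusted p = 1.0 in edgeR). The samples overlap through 6.76%, and WT mice at 30 min were at 7.93%. Csrnp1 had 1 CpG at 0.0% in all rest samples and at 0.0, 3.64, 0.0, 10.8 and 0.0% at 10 min.

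Metabolic and mitochondrial genes had 15 of 22 promoters measured, with 0 at an unadjusted p under 0.05 in edgeR's quasi-likelihood test and a median difference of -0.053 points. Slc2a4, the insulin- and contraction-responsive glucose transporter GLUT4, was at 1.79 ± 0.885% at rest and 1.76 ± 1.1% at 10 min. Cpt1b, which carries fatty acids into mitochondria, was among the few with intermediate levels, at 32.8 ± 1.91% and 26.8 ± 10.3%. For AMPK, insulin and glycogen genes 18 of 25 promoters were measured, with 1 higher and 1 lower at an unadjusted p under 0.05 and a median of -0.0663 points. The higher was Gyg, the primer of glycogen synthesis, at 0.0% in each rest sample and 0.539 ± 0.875% at 10 min. The lower was Gsk3b, a kinase that inhibits glycogen synthase, at 1.16 ± 1.58% and 0.0719 ± 0.0698%. Tbc1d4, which holds back GLUT4 until insulin or contraction signals, was at 8.11 ± 4.17% and 14.2 ± 8.4% (unadjusted p = 0.124 in edgeR).

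Glucocorticoid response and clock genes had 20 of 25 promoters measured, with 2 lower and 0 higher at an unadjusted p under 0.05 and a median of -0.14 points. Clock was at 0.0, 6.78, 1.74, 0.962 and 1.95% at rest and 0.0, 0.0, 1.4, 0.0754 and 0.0% at 10 min. Cebpd, at 2 CpGs, was above 0 only in rest samples 11, at 11.4%, and 14, at 4.35%. Fkbp5, a glucocorticoid target that tempers the receptor, was at 22.4 ± 5.24% and 25.9 ± 7.8%, and Per1 at 0.0719 ± 0.161% and 0.602 ± 1.35%. Heat shock and oxidative stress genes had 16 of 25 measured, 0 at an unadjusted p under 0.05 in edgeR's test and a median of 0.154 points. The mitochondrial superoxide dismutase gene Sod2 was at 1.8 ± 0.712% and 1.35 ± 0.461%. Writers, readers and erasers of DNA methylation had 12 of 24 measured, with only Dnmt3b, described above, at an unadjusted p under 0.05 and a median of 0.00637 points.

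Promoters of muscle structure and muscle identity genes gave no call in edgeR either, and 0 at an unadjusted p under 0.05. Sarcomere and calcium handling genes had 13 of 37 promoters measured and a median difference of -0.417 points. Neb was at 39.6 ± 10.0% at rest and 26.1 ± 7.86% at 10 min, with an interval of -28.1 to 1.13 points, and Ryr1, the calcium release channel, at 1.07 ± 2.21% and 0.458 ± 0.688%. Myogenic regulators had 9 of 15 measured and a median of 0.0517 points, with Myod1 at 5.72 ± 2.65% and 4.38 ± 1.63%. Myokine and growth factor genes had 7 of 16 measured and a median of 0.864 points. Imprinted genes, which keep 1 parental copy methylated, had 10 of 25 measured and a median of -0.00536 points, and several lay at intermediate levels, such as Zrsr1 at 40.7 ± 8.69% and 43.4 ± 8.98%. The promoters of cell type markers had 0 of 26 at an unadjusted p under 0.05 in edgeR's test, namely 5 of myofibres, 3 of satellite cells, 5 of endothelial cells, 2 of fibroblasts, 2 of leukocytes, 5 of Schwann cells and 4 of smooth muscle. Promoter medians ran from -0.912 points for myofibre to 2.66 points for smooth muscle markers, and adipocyte and erythroid markers had no promoter measured. At the same threshold in gene bodies there were 1 of 9 endothelial, 1 of 6 leukocyte and 1 of 7 smooth muscle markers. Tie1, an endothelial receptor kinase gene, was lower at 10 min with an unadjusted edgeR p of 0.00093, Csf1r was lower with 0.00482, and Des, the desmin gene, was higher with 0.0101. Whether Des, listed for smooth muscle, marks those cells in this muscle was not tested. The gene bodies of the other marker lists had 0, beside 4.44% of all gene bodies, and 0 were called in any list.

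The promoters of lowest p overall differed by less than 5 points in the means, apart from Zfp692. Arl2bp, a binding partner of an ADP-ribosylation factor-like GTPase, had 12 CpGs with 1.63, 3.87, 0.695, 0.0738 and 1.94% at rest and 0.0% in each sample at 10 min (unadjusted p = 0.00101, adjusted p = 1.0 in edgeR). Lztfl1, which acts in ciliary trafficking, was at 2.15 ± 0.572% at rest and 0.146 ± 0.326% at 10 min, without overlap. Pank3, a pantothenate kinase of coenzyme A synthesis, went the other way, with 0.0% in each rest sample and 0.0, 0.241, 1.05, 0.444 and 2.22% at 10 min. Gtf3c3, a subunit of the RNA polymerase III factor TFIIIC, was at 2.06 ± 2.31% and 0.0159 ± 0.0357%. The CpGs assigned to Gm21974, which lie 45 bp from the start of Vkorc1, were at 4.38 ± 3.83% and 0.0% in each sample. Zfp692, with 2 CpGs and as few as 21 calls, was at 15.1 ± 14.6% and 0.389 ± 0.547%. Of these 6 promoters, 5 were lower at 10 min. In these 5, knockout mice at rest were below WT rest as well. They were at 0.289% in Arl2bp, 0.759% in Lztfl1, 0.178% in Gtf3c3, 0.212% in Gm21974 and 2.87% in Zfp692. The means of WT mice at 30 and 60 min were also below WT rest in the 5. These promoters were chosen for their p, so a WT rest mean above other groups is not independent of that choice. In Pank3 knockout mice at rest were at 0.118%.

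All 6 gene bodies of lowest p were lower at 10 min, with an adjusted p of 1.0 in edgeR's test. Ddc, the enzyme that makes dopamine and serotonin, had 7 CpGs with 47.1, 44.6, 19.7, 23.3 and 42.2% at rest and 13.4, 19.5, 15.7, 16.9 and 10.7% at 10 min. The lowest rest sample lay just above the highest sample at 10 min. WT mice at 30 and 60 min were at 27.6 and 26.9%. Slx4ip, at 5 CpGs, was at 83.1 ± 8.02% and 53.6 ± 19.6%. Tubb6, a beta-tubulin gene, had 14.1, 10.4, 22.6, 12.0 and 16.4% at rest and 7.64, 1.15, 6.95, 6.11 and 4.27% at 10 min. Tesc, a calcineurin-like calcium-binding protein gene, was at 7.06 ± 2.56% and 3.1 ± 1.99% over 32 CpGs. Eef1b2, a translation elongation factor gene, was at 0.919 ± 0.706% and 0.0745 ± 0.0623%, and Pde3b, the phosphodiesterase through which insulin lowers cyclic AMP, at 1.98 ± 0.737% and 0.796 ± 0.241%. Unadjusted p for the 6 ran from 0.000266 to 0.000591.

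A comparison that stays within sample numbers 26 to 50 set WT mice at 10 min against WT mice at 30 min. EdgeR's quasi-likelihood test called 0 of 51038 clusters there as well (0.0%), with 2052 at an unadjusted p under 0.05 (4.02%), of which 855 were higher at 10 min. The likelihood ratio test called 8 there, and the quasi-binomial model and limma on log2 ratios 0, with 2861 and 2932 at an unadjusted p under 0.05.

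Repeated DNA of very high copy number was examined because it weighs on pooled levels, and these 2 regions were chosen after their values were seen. Ribosomal DNA, 338 CpGs on chromosome 17, was at 13.2, 8.42, 6.7, 9.76 and 12.7% at rest and 8.71, 7.45, 9.95, 7.36 and 7.1% at 10 min, from 3.69 to 4.76% of a sample's calls. The means of 10.1 ± 2.77% and 8.11 ± 1.2% differed by less than the spread between mice (exact permutation p = 0.19), and the rest samples were the more scattered. Major satellite, 32 CpGs on chromosome 2, was at 91.8 ± 1.2% and 91.3 ± 1.41% (exact permutation p = 0.508) and took 4.43 to 10.3% of the calls.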

How the data were processed

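RRBS of soleus DNA was mapped by the authors to mm10 with Bismark 0.18.1 after Trim Galore 0.4.0 and cutadapt 1.9.1. The authors deposited counts of methylated and of unmethylated calls at each CpG, for CpGs with at least 8 calls in every sample. Promoters (3000 bp before to 1000 bp after the start), gene bodies and clusters (CpGs up to 100 bp apart) are as deposited, with 1 gene per CpG. Symbols, exons and sequences came from GENCODE M21 and GRCm38, which matched 205303 CpGs to a CG, and islands were found by GC content and CpG ratio in the same sequence. One sample with conflicting labels was not grouped.

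Counts were summed by feature and fitted in edgeR 4.0.16 (R 4.3.3) over 44 samples, with 1 term for each sample's total and 1 for each group's methylation, by the quasi-likelihood F test with Benjamini-Hochberg adjustment. A call is an adjusted p under 0.05. Unadjusted intervals of differences came from limma 3.58.1 on percent levels. Single values were compared by exact two-sided permutation over all divisions of 5 against 5. Alternatives were the likelihood ratio test, a quasi-binomial model (pseudocount 0.5), limma on log2 ratios (pseudocount 1), the 10 samples alone, sex, coverage of 20, other gaps and filters, and each sample left out. Calls are not independent molecules, and depth ran from 13731392 to 27991287 calls per sample. The authors excluded samples with few aligned reads, whose global methylation levels they observed to differ. Whether depth bears on the level among the 10 samples was not tested.

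Named clusters had 3 or more CpGs, 20 or more calls in each sample and 5 points of difference (12 of lowest p), or the same CpGs and calls and no overlap (6 of largest difference). Named promoters and gene bodies were the 6 of lowest p with 2 or more CpGs, listed promoters with unadjusted p under 0.05, and 12 genes of the study. The groups and lists were chosen with earlier results of these data known. Results of some genes are not reported here.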

Additional observations from a re-analysis of the deposited data

Results flagged for a closer look

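In groups of 5, a sample was singled out when its gap to the nearest other sample exceeded 0.71 of the group's range. For independent, normally distributed values chance does this in about 1 of 20 groups. Of 110 groups of values examined, 18 were singled out, where that rate gives about 5.5. Many of the features were named for a low p or a lack of overlap, so that rate need not hold for them. Many of these groups held several samples at or near 0 or 100%, where a single sample off the limit is enough. No explanation was tested.

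Sample 42 at 10 min stood at 55.0 on component 1, with the other samples at 10 min between -12.0 and 2.26. Sample 13 at rest stood at 53.7 on component 2, with the other rest samples between -11.4 and -3.46.

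Among clusters, Snx27 was at 91.2% in rest sample 11 against 99.1% or more in the others. The cluster near Sipa1l2 was at 15.0% in sample 47 at 10 min and at most 3.96% in the others. Sample 30 at 10 min was apart in Ccdc60, at 8.45% against at most 1.98%, and near Gm11232, at 95.3% against at least 99.7%. Rest sample 20 was at 23.1% near Grifin, and the other rest samples at 9.77 to 13.2%. The Tesc gene body was at 6.6% in sample 30, against 1.82 to 2.68%.

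Among promoters, sample 49 at 10 min was at 0.0797% in Gtf3c3 and 0.729% in Lztfl1, with 0.0% in the others. Gyg was at 2.06% in sample 35, and the other samples at 10 min at most at 0.524%. Clock was at 6.78% in rest sample 11, with the others up to 1.95%, and at 1.4% in sample 42 at 10 min, with the others up to 0.0754%. Tfam was at 2.04% in rest sample 14 and at 0.478% in sample 47 at 10 min, with 0.0% in the others of each group. Mef2a was at 2.27% in sample 47, against at most 0.39%. Dnmt3a was at 1.37% in rest sample 14, against at most 0.382%, and at 0.613% in sample 30 at 10 min, against at most 0.137%.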

How the results depend on the processing

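Clusters called at 10 min against rest numbered 0 in the quasi-likelihood test, 8 in the likelihood ratio test and 4 in limma on percent levels, the last added after the data were seen. The likelihood ratio test called 6 clusters for the interaction with genotype and 8 between 10 and 30 min, where the quasi-likelihood test called 0. Leaving out each sample in turn gave 0 calls for clusters, promoters and gene bodies each time, the lowest adjusted p for clusters being 0.0618, without sample 35. The 10 samples alone, sex, a coverage of 20, cluster gaps of 50 and 200 bp, levels of 5 to 95% and a minimum of 50 calls also gave 0 cluster calls. The global difference ran from -0.651 to -0.094 points with each sample left out, and each of the 9 contexts was lower at 10 min under pooling, a coverage of 20 and each sample left out. In decompositions with 1 sample left out, the difference on component 1 ranged from -8.61, without sample 42, to 18.9. On component 2 it ranged from -12.9 to -4.67, and it was 5.27 with all 44 samples in the decomposition. Each decomposition sets its own axes and signs, so these values are not shifts along 1 axis. Among the features named by the rule, Arid1b passed in the likelihood ratio test, at a log2 odds ratio of -5.56, and in limma on percent levels. The clusters, promoters and gene bodies named for their p or their lack of overlap kept their direction under the alternatives that gave a value, and 12 named features had none at a coverage of 20. The study's promoters near 0 did not: Tfam, Mef2a, Hk2 and Dnmt3a changed sign when a sample was left out, as did Myh8, to 0.473 without sample 20 and 4.15 without sample 42. List medians changed sign between promoters and gene bodies in several lists, the most in smooth muscle markers, at -4.32 points in gene bodies.

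No paired analysis was possible because the sample numbers are unique and shared by no samples of the groups. The spread between mice exceeded counting error, with a squared difference of 6.51 times or more that expected from counting in each pair of samples. Clusters at 40 to 60% had a median interval width of 41.9 points and those under 5% one of 2.91 points. RRBS reads CCGG-rich DNA, and the promoters of Ppargc1a, Pdk4, Atf3 and Myog were not analysed.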
